A study of Mus musculus with 4 samples.

Results

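The genes described here are G1 cyclins and CDK inhibitors together with Rb1, 10 genes chosen by symbol out of 40999 listed features. They are the D-type cyclins Ccnd1, Ccnd2 and Ccnd3, an E-type cyclin, Ccne1, the Cip/Kip inhibitors Cdkn1a and Cdkn1b, the INK4 inhibitors Cdkn2b, Cdkn2c and Cdkn2d, and the pocket protein gene Rb1. Total RNA was sequenced from gonads of wild-type C57BL/6J mouse embryos on 4 successive days, the first at E11.5 and the last at E14.5, and each day gave 1 library. Every library was a mixed XX and XY sample, pooled from at least 6 male and 6 female gonads of 2 litters, so a value cannot be assigned to either sex. The E11.5 pool held the mesonephros, which was dissected away at the later days, so embryonic day and this tissue cannot be told apart in a comparison with E11.5. In order of age, the libraries held 31266481, 25593453, 31752562 and 31526303 deduplicated counts. With no replicates, differences are between libraries, and each 95% interval covers counting error only.

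Entry into S phase is controlled in G1. D-type cyclins activate Cdk4 and Cdk6 and cyclin E activates Cdk2, these kinases phosphorylate the retinoblastoma protein, and E2F target genes are then released from repression. INK4 proteins bind Cdk4 and Cdk6, and Cip/Kip proteins act on cyclin-CDK complexes more broadly. In the fetal mouse gonad, XY germ cells leave the cycle and arrest in G1/G0 while XX germ cells enter meiosis, and Sertoli cells of the XY gonad continue to divide.

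Levels of a gene across libraries are given as scaled CPM, the CPM after TMM scaling over the 4 libraries. Without this scaling, on total counts, the median of all genes moved by -1.06 on the log2 scale from E13.5 to E14.5, and the cause was not tested. The 18S rRNA gene Rn18s-rs5 held 9.06%, 1.31%, 1.03% and 40.7% of the counts in order of age. Orders of libraries and calls below are on the scaled CPM unless another scale is named. Levels of different genes were compared as TPM, which is per exon length, and only within a library. In these pooled tissues, fewer cells of a type and less RNA per cell cannot be told apart.

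Ccnd1, a D-type cyclin induced by mitogens in many tissues, had 3616 counts in the E11.5 library and 1443, 1207 and 586 in the following ones. On the scaled CPM these were levels of 106, 46.0, 30.5 and 31.1. The E11.5 library stood highest, E12.5 was intermediate, and E13.5 and E14.5 did not differ beyond counting error on this scale. The log2 fold change was -1.20 from E11.5 to E12.5 (95% interval -1.29 to -1.11), past the 2-fold threshold used here. It was -0.59 from E12.5 to E13.5 (-0.70 to -0.48) and 0.03 from E13.5 to E14.5 (-0.11 to 0.17), the last of which was -1.03 on total counts and -1.59 as a ratio of TPM, both past 2-fold. As a ratio of deposited TPM the first of these log2 changes was -0.91, which is not past 2-fold. The summed markers of the mesonephros, 7 genes of which Pax8 had the highest mean TPM, went in the same interval from 153.5 to 24.7 scaled CPM. Of these 5 fell past 2-fold, while Pax8 was at -0.82 (-1.03 to -0.61) and Lhx1 at 0.64 (0.38 to 0.91), and their part in the Ccnd1 difference was not tested. Between E12.5 and E14.5, both without mesonephros, the log2 fold change of Ccnd1 was -0.56 (-0.70 to -0.42), and it was -1.60 on total counts.

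Ccnd2, the D-type cyclin with the most counts of the 10 genes, had 13040, 8292, 9884 and 5416 counts from the first day to the last. Its levels were 381, 264, 249.8 and 288 scaled CPM, highest at E11.5 and, on this scale, lowest at E13.5. The E12.5 level was below E11.5 by a log2 fold change of -0.53 (-0.57 to -0.49), and later steps were -0.08 (-0.12 to -0.04), which turned to 0.05 as a ratio of TPM, and 0.20 (0.16 to 0.25). Ccnd3, the remaining D-type cyclin, had 4445, 4043, 5261 and 2796 counts in order of age. Its levels of 129.7, 128.9, 132.9 and 148.5 scaled CPM spanned a log2 range of 0.21. The first 3 libraries did not differ beyond counting error for Ccnd3, and E14.5 was above E13.5 by 0.16 on the log2 scale (0.09 to 0.23). Both increases of Ccnd2 and Ccnd3 at E14.5 turned into decreases on total counts, with log2 changes of -0.86 and -0.90, and as ratios of TPM, with -1.42 and -1.46.

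Within the D-type cyclins, shares of summed TPM do not depend on scaling between libraries. Ccnd1 held 19.2% of the summed TPM in the E11.5 library, then 11%, 7.65% and 6.95%. Ccnd3 moved the other way, with 38.1%, 49.9%, 53.8% and 53.5%. Ccnd2 held 42.7%, 39.1%, 38.6% and 39.5%. Ccnd2 led at E11.5 and Ccnd3 led in each later library. The TPM ratio of Ccnd3 to Ccnd2 was 0.893 at E11.5 (0.863 to 0.924) and 1.28 at E12.5 (1.23 to 1.33). It was 1.39 at E13.5 (1.35 to 1.44) and 1.35 at E14.5 (1.29 to 1.42). Counted without division by length, Ccnd2 led in all 4 libraries, with 61.8% of the counts at E11.5 (Wilson 95% interval 61.1 to 62.5) and 61.6% at E14.5 (60.5 to 62.6).

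**Figure D1:**
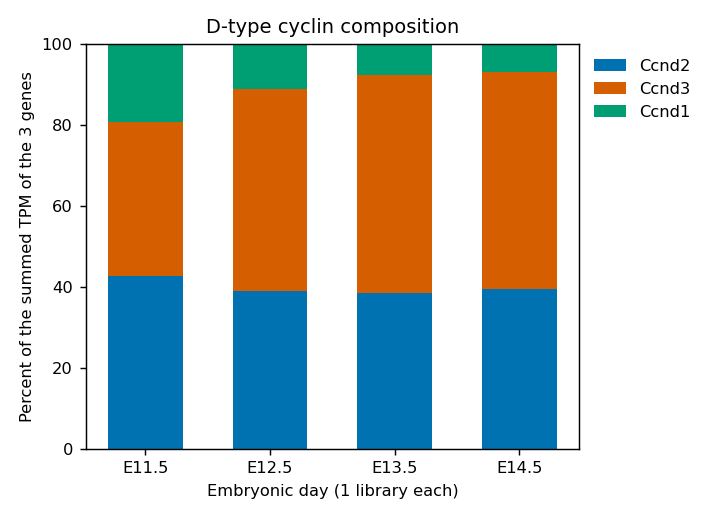
Stacked bars show the percent of the summed TPM of Ccnd1, Ccnd2 and Ccnd3 held by each gene in the library of each embryonic day. Ccnd1 takes 19.2% at E11.5 and 6.95% at E14.5, and Ccnd3 takes 38.1% and 53.5%.

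Ccne1, an E-type cyclin that partners Cdk2, had 850, 584, 624 and 217 counts in the same order. Its scaled CPM were 24.8, 18.6, 15.8 and 11.53, each lower than the day before by more than counting error, and every step was negative on each scaling tried. On the scaled CPM no single daily step reached 2-fold, with log2 fold changes of -0.41 (-0.57 to -0.26), -0.24 (-0.40 to -0.07) and -0.45 (-0.68 to -0.23). The last step was past 2-fold on total counts, at -1.51, and as a ratio of TPM, at -2.07. Over the whole course the log2 difference between E11.5 and E14.5 was 1.10 (0.89 to 1.33), with E11.5 higher. This difference was wider on other scales, with 27.19 and 6.883 CPM on total counts and 19.57 and 3.949 TPM.

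Rb1, the pocket protein that the G1 kinases act on, had 1010, 986, 1536 and 614 counts from E11.5 to E14.5. These were 29.5, 31.4, 38.8 and 32.6 scaled CPM, with E13.5 highest and the other days not separated beyond counting error between neighbours in the order. The log2 fold change was 0.30 from E12.5 to E13.5 (0.19 to 0.42) and -0.25 from E13.5 to E14.5 (-0.39 to -0.11). On total counts the step to E14.5 was -1.31, and the difference from E12.5 to E14.5 turned from 0.05 to -0.98.

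Cdkn1b encodes p27, a Cip/Kip inhibitor linked to cell cycle exit. It had 2137 counts at E11.5, 3685 a day later, then 5979 and 2479, or 62.4, 117, 151 and 132 scaled CPM. E11.5 was the lowest library, E13.5 the highest, and all neighbours in the order differed beyond counting error. In TPM the lowest was E14.5, at 19.09 against 20.82 at E11.5. From E11.5 to E12.5 the log2 fold change was 0.91 (0.84 to 0.99), just under 2-fold. On total counts it was 1.07 and as a ratio of TPM 1.20, both past 2-fold. Later steps were 0.36 (0.30 to 0.42) and -0.20 (-0.27 to -0.13), the last of which was past 2-fold on total counts, at -1.26, and as a ratio of TPM, at -1.82. From E12.5 to E14.5 the log2 change was 0.17 (0.09 to 0.24), and it was -0.87 on total counts.

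Cdkn1a encodes p21, the Cip/Kip inhibitor known as a p53 target. It had 375, 348, 563 and 174 counts in order of age, or 10.9, 11.1, 14.2 and 9.24 scaled CPM. On this scale E13.5 was highest, and E14.5, E11.5 and E12.5 did not differ beyond counting error between neighbours in the order. The step from E12.5 to E13.5 was 0.36 on the log2 scale (0.16 to 0.56), and the step to E14.5 was -0.62 (-0.88 to -0.37). On total counts E14.5 was past 2-fold below E13.5, at -1.68, and below E12.5, at -1.30. Cdkn1b exceeded Cdkn1a in TPM in every library. Their ratio was 2.50 at E11.5 (2.24 to 2.79), 4.64 at E12.5 (4.16 to 5.19), 4.65 at E13.5 (4.27 to 5.08) and 6.24 at E14.5 (5.35 to 7.32). A further Cip/Kip inhibitor gene, Cdkn1c, is not among the genes chosen here and was more abundant in TPM than both in every library. Cdkn1c had 250.5, 164.2, 199.5 and 46.98 TPM in order of age, beside 20.82, 47.8, 67.27 and 19.09 TPM of Cdkn1b.

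Set against cyclins within the same library, Cdkn1b TPM was 0.514 of Ccnd1 TPM at E11.5 (0.487 to 0.542) and 2.22 times Ccnd1 at E12.5 (2.09 to 2.36). The ratio was 4.31 at E13.5 (4.05 to 4.58) and 3.68 at E14.5 (3.36 to 4.03). Ccnd1 was the more abundant of this pair at E11.5 and Cdkn1b at each later day. Against Ccnd2 the Cdkn1b ratio was 0.231, 0.627, 0.854 and 0.646, below 1 in every library.

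Cdkn2c encodes p18, an INK4 inhibitor of Cdk4 and Cdk6. It had 73, 65, 147 and 133 counts from the first library to the last. In scaled CPM the levels were 2.13, 2.07, 3.71 and 7.07. E11.5 and E12.5 did not differ beyond counting error, E13.5 was higher and E14.5 was highest. The log2 fold changes were -0.04 (-0.55 to 0.46), 0.84 (0.41 to 1.29) and 0.93 (0.58 to 1.28) over the daily steps. From E12.5 to E14.5 the log2 fold change was 1.77 (1.33 to 2.22), a 3.40-fold rise. This rise depended on scaling for its size, since the log2 change was 0.73 on total counts and 0.28 as a ratio of TPM, neither past 2-fold. The step from E13.5 to E14.5 turned negative on those scales, at -0.13 and -0.69.

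Cdkn2d encodes p19, another INK4 inhibitor, and had 204, 181, 287 and 176 counts. Its levels were 5.95, 5.77, 7.25 and 9.35 scaled CPM, with E11.5 and E12.5 alike within counting error and E14.5 highest. From E12.5 to E14.5 its log2 fold change was 0.70 (0.39 to 1.004), not called although its interval reached the threshold, and it was -0.34 on total counts. Cdkn2b, which encodes p15, was close to the detection limit, with 6, 12, 16 and 9 counts. A floor of 3 counts corresponds to 0.0875 scaled CPM at E11.5 and 0.159 at E14.5, and Cdkn2b stood at 0.175, 0.382, 0.404 and 0.478. Its log2 change of 1.11 from E11.5 to E12.5 had an interval from -0.40 to 2.83, so no difference was detectable at this depth.

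Among the 3 INK4 members, a sum that leaves out Cdkn2a, Cdkn2d held most of the summed TPM in each library, with 79.4%, 77.0%, 72.1% and 65.0% from E11.5 to E14.5. Cdkn2c held 18.2%, 17.7%, 23.7% and 31.5%, shares that do not depend on scaling between libraries. By counts, the Cdkn2c share was 25.2% at E12.5 (Wilson 95% interval 20.3 to 30.8) and 41.8% at E14.5 (36.5 to 47.3), and these intervals did not overlap. Cdkn2b held between 2.44% and 5.33% of the TPM. Cdkn2a, which encodes the INK4 protein p16 and also p19Arf, had 0.119, 1.43, 3.48 and 1.82 TPM in order of age, beside 1.45, 1.71, 3.36 and 2.08 TPM of Cdkn2c, so shares over all INK4 genes would be lower.

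**Figure D2:**
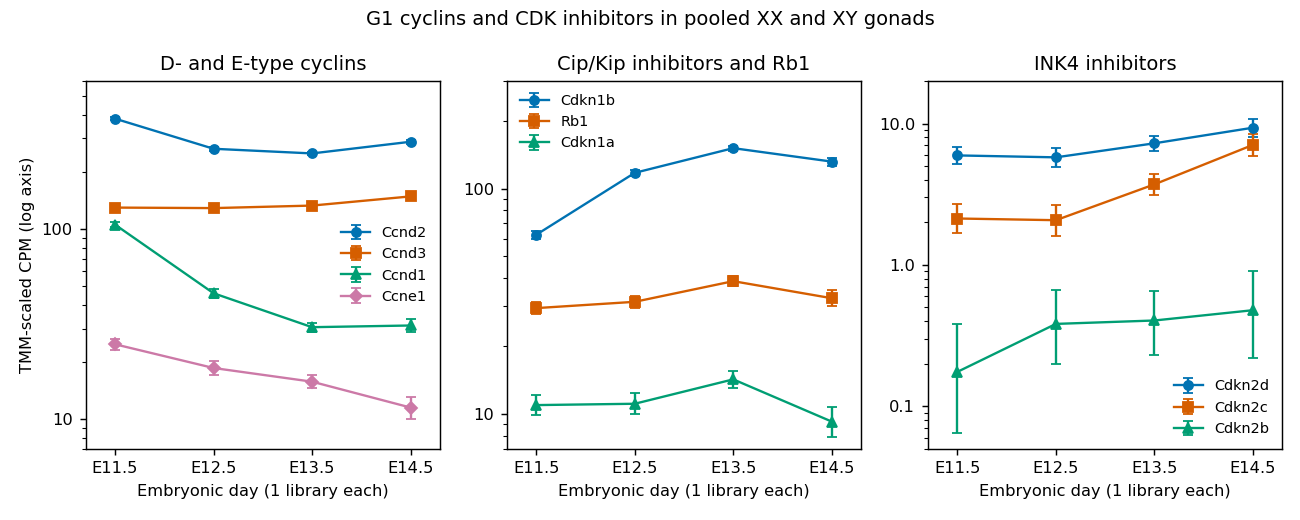
Points show TMM-scaled CPM of each gene on a log axis against embryonic day, 1 library per day, with exact 95% counting intervals as bars. Ccnd1 goes from 106 to 31.1 between E11.5 and E14.5, Cdkn1b peaks at 151 at E13.5, and Cdkn2c reaches 7.07 at E14.5. On total counts the E14.5 increases of Ccnd2, Ccnd3, Cdkn2c and Cdkn2d over E13.5 become decreases, and Ccnd1 and Cdkn2b, which did not differ beyond counting error, turn negative.

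Taking the 10 genes as a list, all passed the filter on low counts, and 2 of them were past 2-fold from E11.5 to E12.5, where 19.3% of the 20114 genes tested were past the same fold. These were Ccnd1, which fell, and the sparsely counted Cdkn2b. The median log2 fold change was -0.02 over the members and 0.00 over all genes. From E12.5 to E13.5, 0 members were past 2-fold, against 6.85% of all genes, and the medians were 0.19 and 0.00. From E13.5 to E14.5 the member count was again 0, against 11% of all genes, with medians of 0.10 and -0.01. From E12.5 to E14.5, 1 member was past 2-fold, the rise of Cdkn2c, against 14.3% of all genes, with medians of 0.14 and 0.00. This last comparison shares its libraries with the daily steps. Shares of 2 in 10, 0, 0 and 1 in 10 were near or below those of all genes and are no result about the list. Another scaling changed the list at E14.5. On total counts, which moved the median of all genes by -1.06 from E13.5 to E14.5, 5 members (Ccnd1, Ccne1, Cdkn1a, Cdkn1b and Rb1) were past 2-fold, all downward, where 59.8% of all genes fell past 2-fold, so this count is no result about the list either.

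**Figure D3:**
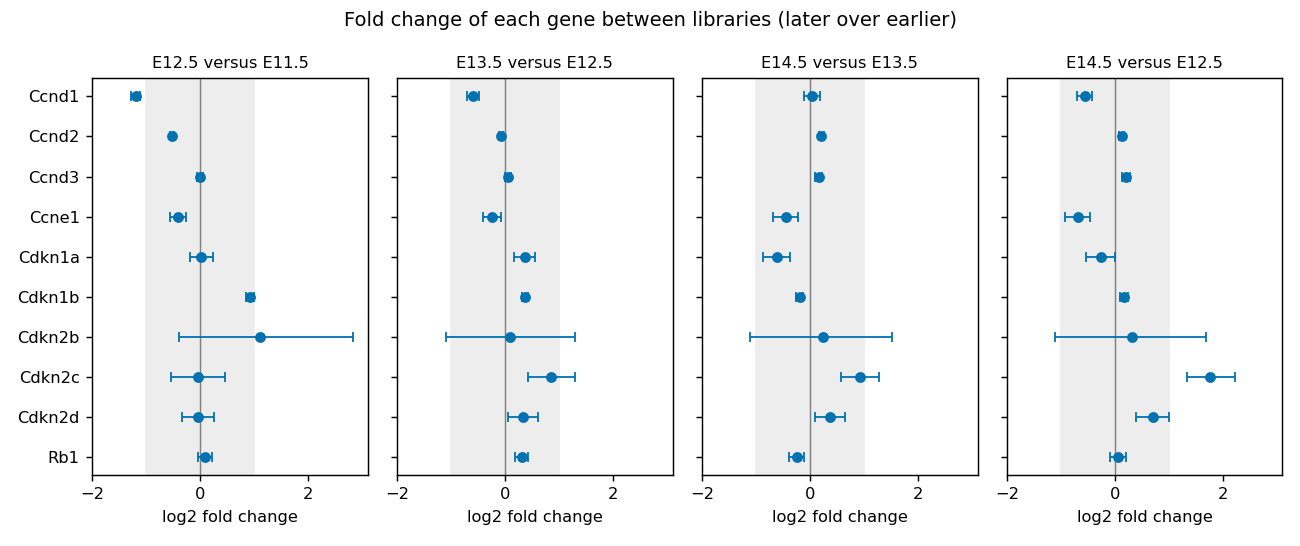
Points show the log2 fold change, later over earlier library, of each gene in 4 comparisons, with exact 95% counting intervals as bars and the range within 2-fold shaded. Ccnd1 lies at -1.20 in the first comparison and Cdkn2c at 1.77 in the last, while the Cdkn2b interval crosses 0 in every panel. On total counts the median of all genes moves by -1.06 and -1.04 in the comparisons that end at E14.5, and Cdkn2d turns negative in both.

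The other G1/S genes were a list of 31, including CDKs, E2Fs, further inhibitors and pocket proteins, and its most abundant gene by TPM was Cdk4. Cdk4, the kinase partner of D-type cyclins, stood at 251.5, 195, 157 and 139 scaled CPM. From E11.5 to E12.5, 1 of the 31 rose and 1 fell past 2-fold, against 19.3% of all genes in either direction. Cdkn2a, which encodes p16 and p19Arf, went from 3 to 27 counts, a log2 fold change of 3.24 (1.60 to 5.66). Ccna1, a germline cyclin, went from 14 counts to 1, at -3.53 (-9.08 to -0.96). That 1 count is below the floor of 3 counts, and every Ccna1 change that uses E12.5 rests on it. Cdkn1c, the Cip/Kip inhibitor p57, was at -0.89 (-0.94 to -0.85), under the threshold. From E12.5 to E13.5 both Cdkn2a and Ccna1 rose past 2-fold, where 3.92% of all genes did, with 76 and 10 counts at E13.5, and log2 changes of 1.16 (0.51 to 1.85) and 2.86 (0.17 to 8.43). From E13.5 to E14.5 there were 0 calls in the list, against 11% of all genes in either direction. On total counts that step gave 25 falls, where 59.8% of all genes fell past 2-fold. From E12.5 to E14.5 both Cdkn2a and Ccna1 rose past 2-fold, where 9.63% of all genes did, Cdkn2a at 1.83 (1.16 to 2.56) and Ccna1 at 3.54 (0.84 to 9.21). On total counts this last comparison instead gave 1 rise, Ccna1, and 19 falls, where 54.4% of all genes fell past 2-fold. The list medians were -0.07, 0.02, -0.04 and -0.06.

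Among 15 p53 target genes, listed because Cdkn1a belongs to that response, 2 rose past 2-fold from E11.5 to E12.5, where 9.69% of all genes did, and the count is no result about this list. They were Btg2, an antiproliferative gene and the most abundant of the list, at 1.40 (1.34 to 1.46), and Perp at 1.57 (0.89 to 2.29). Perp fell from E12.5 to E14.5 at -1.44 (-2.36 to -0.62), from 68 to 15 counts, the 1 call of the list where 14.3% of all genes were past 2-fold. The list medians were 0.27, -0.16, -0.17 and -0.32. On the scaled CPM none of 15 S phase genes and none of 14 mitosis genes was past 2-fold in any of the 4 comparisons. Over the daily steps and then from E12.5 to E14.5, 19.3%, 6.85%, 11% and 14.3% of all genes were. Of the 13119 genes with a mean of at least 100 counts, 1307, 166, 417 and 664 were, a smaller share in each comparison. All genes of both lists had such a mean, and the difference from either share was not tested. On total counts all 15 and all 14 were past 2-fold downward from E12.5 to E14.5, as were 7 of 10 housekeeping genes and 12 of the 15 p53 targets, where 54.4% of all genes were. In that comparison 14 of the 15 S phase genes and 14 of the 14 mitosis genes had scaled values below 0, where 50.6% of all genes did, with medians of -0.29 and -0.27 against 0.00. These offsets were not tested. The largest difference of the S phase list was Mcm2, a replicative helicase subunit, at -0.59 (-0.67 to -0.51), and that of the mitosis list was Ccnb1, a mitotic cyclin, at -0.50 (-0.60 to -0.40). The 10 housekeeping genes had 0 calls on the scaled CPM and a median of -0.06 in the same comparison.

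Markers of gonadal cell types moved over the same days as the members, and the gene said to lead a marker list is the one with the highest mean TPM, which need not be the largest part of the sum. The 10 germ cell markers, led by Dazl, summed to 21.0, 341, 451 and 421 scaled CPM in order of age. The 5 XY germ cell markers, led by Lefty1, summed to 1.90, 11.9, 16.4 and 31.8, and Nanos2 and Dnmt3l were at 0 counts at E11.5 and E12.5. Of these, Nanos2 had 12 counts at E13.5 and 75 at E14.5. The 6 meiotic markers, led by Smc1b, summed to 19.7, 45.9, 128.6 and 168.7, with Stra8 at 0 counts at E11.5. Lefty1 itself was at 8.95 scaled CPM at E13.5 and 5.68 at E14.5.

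Somatic markers moved as well. The 6 Sertoli cell markers, led by Amh, summed to 97.7, 549, 461 and 498 scaled CPM, and the 6 pregranulosa cell markers, led by Wnt4, to 135, 209, 275 and 214. Of these pregranulosa markers, 4 rose and 2 fell from E11.5 to E12.5, with log2 changes of -0.38 for Wnt4 and -0.42 for Rspo1. Their sum fell from E13.5 to E14.5, where 4 fell, Foxl2 rose at 0.67, and Rspo1, at 0.03, did not differ beyond counting error. The 4 fetal Leydig cell markers, led by Cyp17a1, summed to 7.82, 132, 591 and 989.5, with Insl3 at 0 counts at E11.5. The 5 endothelial markers, led by Cdh5, summed to 353, 337, 259 and 239, the 6 erythroid markers, led by Hbb-y, to 1399, 1614, 653 and 202, and the 6 macrophage markers, led by C1qb, to 48.4, 19.0, 17.7 and 25.5. Mesonephros markers summed to 21.3 and 22.8 at E13.5 and E14.5. Summed germ cell, XY germ cell, meiotic, Sertoli, pregranulosa, fetal Leydig and erythroid markers were all higher at E12.5 than at E11.5. Endothelial, mesonephros and macrophage sums were lower, the endothelial one only from 353 to 337. Markers were divided in some lists over this step, with 2 endothelial ones rising and 3 falling, and 2 erythroid ones rising and 4 falling. Cdkn2c did not differ beyond counting error between E11.5 and E12.5. From E12.5 to E14.5, where Cdkn2c rose, the XY germ cell, meiotic and fetal Leydig sums of scaled CPM were all higher at each day. As summed TPM each of these fell from E13.5 to E14.5, from 14.64 to 7.325, 95.45 to 43.95 and 674.1 to 369.2. The part of any of these cell populations in the differences of Cdkn2c, Cdkn1b, Ccnd1 and Ccnd2 was not tested.

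The genes with the pattern most like a member were sought over the 4 libraries by the root mean square difference of centred log2 scaled CPM. For Ccnd1, among 12071 genes, the closest were Fli1 (0.0804), Prr5l (0.0838), Asxl3 (0.0863), Faxc (0.1002) and Csrnp3 (0.1074). For Cdkn2c, among 12072 genes, they were Lepr (0.0641), Ugt8a (0.0731), Galnt16 (0.121), Epha3 (0.135) and Reln (0.152). Lepr, for example, stood at 3.41, 3.35, 6.32 and 12.6 scaled CPM.

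Locations of the genes in mm10 bear on the counts of Ccnd1 and Ccnd3. Ccnd1 lies on chromosome 7 from 144929931 to 144939937 and shares 1049 exon bases with Oraov1 on the opposite strand, which had 415, 302, 407 and 201 counts. Ccnd3 lies on chromosome 17 from 47505051 to 47599689 and shares 359 exon bases with Bysl on the opposite strand, which had 780, 724, 808 and 383 counts. The strand setting of the counting is not given in the sources used here, so reads in the shared bases are uncertain. Cdkn2c lies on chromosome 4 from 109660876 to 109666777 and Cdkn1b on chromosome 6 from 134920342 to 134925525, and neither shares exon bases with another listed gene.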

How the data were processed

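The authors prepared stranded libraries with UMIs after rRNA depletion, aligned reads to mm10 with STAR, removed duplicates with UMI-tools and counted reads per gene with featureCounts. The count values used are these deduplicated counts as deposited. The deposited TPM were computed by the authors from counts and exon lengths, and the deposited RPKM, also computed by the authors, were not used. Versions and the strand setting are not given in the sources used here. Calculations used R 4.3.3, edgeR 4.0.16, DESeq2 1.42.0, and Python 3.11.15 with matplotlib 3.10.9, scipy 1.17.1, pandas 2.3.3 and numpy 2.4.6. Genes passed filterByExpr with each library as a group, leaving 20114, and were scaled by TMM over the 4 libraries. Log2 fold changes used a prior count of 0.125 and exact Clopper-Pearson intervals, and a call needs a 2-fold change. No p-value was computed for the main results. Steps were tested on simulated data. Named genes are all members, and of each list the genes past 2-fold, up to 4 of the largest changes and the most abundant gene. Likeness used the 2 members of widest range with at least 100 counts in their highest library, and genes with a mean of at least 5 scaled CPM. Adgre1 and Tigar were found under the older symbols Emr1 and 9630033F20Rik. The members and lists were chosen with earlier results of these data known. Alternatives were other scalings, filters, prior counts, thresholds and a preset-dispersion test.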

Additional observations from a re-analysis of the deposited data

How the results depend on the processing

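DESeq2 size factors, TMM of the compared pair and a prior count of 2 changed the sign of 0 of the 40 member log2 fold changes, total counts changed 15 of 40, and ratios of deposited TPM 16 of 40. No paired analysis was possible because each time point has 1 library.

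On total counts 5 members were past 2-fold from E13.5 to E14.5 and 3 (Ccnd1, Ccne1 and Cdkn1a) from E12.5 to E14.5, all downward, in place of 0 and the rise of Cdkn2c, with 12457 and 11531 of all genes and 25 and 20 of the other G1/S genes. As ratios of TPM these were 9 and 8 members, 17874 and 16631 of all genes and 29 and 29 of the other G1/S genes. The median of all genes moved by -1.06 and -1.04 on total counts and by -1.62 and -1.49 on TPM, in libraries where Rn18s-rs5 held 40.7% of the E14.5 counts, and the cause was not tested. On TPM the split of all genes was 239 rises and 17635 falls from E13.5 to E14.5, against 1492 and 727, and 370 and 16261 from E12.5 to E14.5, against 1937 and 941. On total counts it was 419 and 12038, and 594 and 10937. On TPM it was 2645 and 1407 from E11.5 to E12.5, against 1949 and 1931, and 1023 and 481 from E12.5 to E13.5, against 788 and 590, where the median moved by 0.28 and 0.13. Total counts moved the median by 0.16 from E11.5 to E12.5. For the lists of p53 targets, S phase, mitosis and housekeeping genes these scales were added after seeing the data. From E13.5 to E14.5 total counts put 11, 13, 11 and 8 of them past 2-fold and TPM 15, 15, 14 and 10, in place of 0 each. From E12.5 to E14.5 total counts gave 12, 15, 14 and 7 and TPM 15, 15, 14 and 10, in place of 1, 0, 0 and 0, and every one of these was a fall. From E11.5 to E12.5 TPM gave 5 p53 targets past 2-fold in place of 2, all rises. In that step Ccnd1 was no longer past 2-fold on TPM, and Cdkn1b was past it on both scales.

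Without a filter 10245, 7498, 8720 and 9173 genes were past 2-fold in the 3 daily steps and then from E12.5 to E14.5, in place of 3880, 1378, 2219 and 2878. The genes tested were then 29355, 29434, 29209 and 28893, in place of 20114. With a mean of at least 100 counts, 1307, 166, 417 and 664 of 13119 genes tested were past 2-fold. At that depth there was 1 member (Ccnd1) from E11.5 to E12.5, and 0, 0 and 0 of the other G1/S genes in the comparisons that had calls. A prior count of 2 also left 1 member from E11.5 to E12.5. At 1.5-fold there were 6436, 3265, 4084 and 5336 genes, 2, 2 and 3 members in the comparisons after the first, and 2 other G1/S genes from E13.5 to E14.5.

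An exact test with the biological coefficient of variation preset at 0.1 gave 1 member (Ccnd1) from E11.5 to E12.5 and kept the rise of Cdkn2c from E12.5 to E14.5, with 2793, 366, 940 and 1504 of all genes in the 4 comparisons, and 0 other G1/S genes from E12.5 to E13.5. At 0.4 it gave 0 members from E11.5 to E12.5 and 0 from E12.5 to E14.5, 283, 1, 31 and 71 of all genes, and 0 of the other G1/S genes. With 1 library per day the variation could not be estimated, so the counts of this test rest on the preset value.

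As shares of counts, not divided by length, Ccnd1, Ccnd2 and Ccnd3 held 17.1%, 61.8% and 21.1% at E11.5 and 10.5%, 60.2% and 29.3% at E12.5. Ccnd2 and Ccnd3 held 60.4% and 32.2% at E13.5 and 61.6% and 31.8% at E14.5. Depth limits Cdkn2b, which had at most 16 counts in a library.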
